A study of Rattus norvegicus with 8 samples.

Results

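The insulin-like growth factor (IGF) binding protein genes Igfbp2, Igfbp3, Igfbp4, Igfbp5, Igfbp6 and Igfbp7 were followed through the 8 libraries of a study of SF2 cells. They are 6 of the 30240 rows of the gene table and were taken by gene symbol. The set was drawn up with its values in view, because Igfbp5 and Igfbp3 lay on opposite sides of 0 between libraries labelled TGF and N. That contrast is therefore given as a description of the members, without a test. SF2 is an epithelial line from the cervical loop of the rat lower incisor, where enamel-forming ameloblasts arise. The cells were labelled AmeloD-overexpressing or Control, and AmeloD is a basic helix-loop-helix transcription factor encoded by Ascl5. Each genotype carried the label pCMV6.ODAM or pCMV6 (Odam encodes odontogenic ameloblast-associated protein), and each of these the label TGF or N, which are not spelled out. Each of the 8 combinations had a single library, so each level of a factor was seen in 4 libraries and replicates of a combination were lacking. The labels do not give the agent, dose or time behind TGF, the number of clones behind either genotype, or whether the libraries came from separate cultures. All p-values therefore rest on the spread left between these libraries after the fitted factors, pooled in part over genes. That spread may be technical, and it cannot be told apart from interactions of the factors that were not fitted.

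IGF binding proteins are secreted carriers of IGF1 and IGF2. They hold the ligands away from the IGF1 receptor or release them near it after cleavage by proteases, and several members also bind matrix and cell surface molecules independently of IGF. Igfbp3 encodes the main carrier of IGF in the circulation, Igfbp5 a carrier that also binds extracellular matrix, Igfbp2 a carrier with an integrin-binding sequence, Igfbp4 and Igfbp6 carriers that mostly restrain IGF, the Igfbp6 product preferring IGF2, and Igfbp7 a low-affinity relative found in matrix. Transforming growth factor beta is known to act on several of these genes in other cell types, in directions that depend on the cell.

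In the deposited coordinates (mRatBN7.2) the genes form 1 pair of tail-to-tail neighbours and 4 genes elsewhere. Igfbp5 (ENSRNOG00000017206, chromosome 9, 74448382 to 74465156, minus strand) lies 5444 bases from the end of Igfbp2 (ENSRNOG00000016957, chromosome 9, 74415546 to 74442937, plus strand). Igfbp3 (ENSRNOG00000061910, chromosome 14, 82056347 to 82064083, minus strand) lies 3864 bases from Igfbp1 (chromosome 14, 82047415 to 82052482, plus strand), a family gene outside the set. Igfbp7 (ENSRNOG00000002050) spans chromosome 14, 30737164 to 30797314, Igfbp4 (ENSRNOG00000010635) chromosome 10, 83989591 to 84007225, and Igfbp6 (ENSRNOG00000010977) chromosome 7, 133276234 to 133280966. The last 87 bases of Igfbp7 overlap the opposite-strand gene Polr2b, which had 151 reads in the 8 libraries. This overlap holds the 3′ end of both genes, and the libraries were made with a 3′-end kit. Whether the counting used strand is not stated, so reads in that overlap cannot be told apart. Their effect on the Igfbp7 values was not tested. No gene of the table overlapped the other 5 members.

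The promoters of Igfbp5 and Igfbp3 are shown because these genes differed in opposite directions between TGF and N libraries. Both sequences are the 250 bases before the RefSeq start in build GRCr8, read 5′ to 3′ on the gene's strand, chr9:81914188-81914437 for Igfbp5 and chr14:86277945-86278194 for Igfbp3. Capitals mark matches to CANNTG, the E-box bound by basic helix-loop-helix factors, and to CAGAC, a SMAD-binding element, on either strand.
Igfbp5: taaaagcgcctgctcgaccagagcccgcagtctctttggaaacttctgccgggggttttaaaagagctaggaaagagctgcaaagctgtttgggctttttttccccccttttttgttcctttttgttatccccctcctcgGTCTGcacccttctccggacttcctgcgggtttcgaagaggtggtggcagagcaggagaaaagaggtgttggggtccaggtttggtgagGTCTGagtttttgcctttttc
Igfbp3: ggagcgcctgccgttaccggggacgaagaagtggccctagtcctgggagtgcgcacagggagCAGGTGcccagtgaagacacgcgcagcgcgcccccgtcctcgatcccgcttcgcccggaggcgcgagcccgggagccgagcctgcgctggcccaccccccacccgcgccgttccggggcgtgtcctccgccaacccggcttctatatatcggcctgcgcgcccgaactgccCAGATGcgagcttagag
The Igfbp5 window held 0 E-box and 2 CAGAC matches, both on the reverse strand as GTCTG. The Igfbp3 window held 2 E-box and 0 CAGAC matches. All 6 members had a RefSeq promoter. Igfbp2 and Igfbp4 held 2 E-boxes each, Igfbp6 held 4 and Igfbp7 held 1, and of these 4 only Igfbp7 had a CAGAC match, a single one. The 2 motifs shared 0 bases in any of these windows. Such matches are common by their length: of 33469 rat promoters, 65.5% held CANNTG and 42.9% held CAGAC in the same window. The GC-rich SMAD element GGCGCC, present in 8.69% of promoters, was in none of the 6 windows, and TATAAA, present in 12.9%, was only in that of Igfbp4. Base composition differed as well, with 51.6% G and C in the Igfbp5 window and 71.6% in the Igfbp3 window. A match is a description of the letters and no evidence of binding.

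The libraries held 10568146 to 13668736 reads for AmeloD and 14766931 to 17775226 for Control, of which 15.6% to 17.5% lay on rows of the gene table, and log2 values of the 6849 tested genes correlated between libraries at r = 0.948 to 0.981. Values are CPM, reads scaled to the total of the whole library. Ascl5 had 0 reads in every library, and Odam had 31 reads in the pCMV6.ODAM and 1 in the pCMV6 libraries, 4 of the 32 in AmeloD. The table thus does not show the labelled overexpression of AmeloD. With pCMV6.ODAM, Odam was at 0.219 (TGF) and 0.0742 CPM (N) in AmeloD and at 1.10 (TGF) and 0.677 CPM (N) in Control. Whether a transcript made from a construct would be counted was not tested. Epithelial identity was visible: 10 of 13 listed epithelial markers were measured well enough to test, with summed levels of 1077 to 1166 CPM in AmeloD and 678 to 830 CPM in Control. Krt18 was at 0, and Krt14 and Krt15 had no row. Most of the sum came from Krt17 (495 to 546 CPM in AmeloD, 300 to 382 CPM in Control), Krt5 and Krt7. Krt8 went the other way, at 2.67 to 4.99 CPM in AmeloD and 7.51 to 10.3 CPM in Control. Of 12 dental epithelial and ameloblast markers, 8 were at 0 reads (Amelx, Ambn, Enam, Amtn, Klk4, Mmp20, Shh and Tbx1). Summed endothelial markers were at 0.742 to 2.19 CPM in AmeloD and 1.01 to 1.95 CPM in Control, leukocyte markers at 2.77 to 3.73 CPM in AmeloD and 0.876 to 1.63 CPM in Control, and odontoblast and bone markers at 0.146 to 0.832 CPM in AmeloD and 0.169 to 0.520 CPM in Control.

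The family had 25091 reads over the 8 libraries, on 5 of its 6 genes. Igfbp2, Igfbp3, Igfbp5 and Igfbp7 reached at least 1 CPM in at least 4 libraries and entered the tests. Igfbp4 was listed at 0 in every library and Igfbp6 had 1 read, in the AmeloD pCMV6.ODAM TGF library. By counting error alone, a count of 0 leaves room for levels of up to 0.219 to 0.284 CPM in the AmeloD and 0.169 to 0.203 CPM in the Control libraries, the worth of 3 reads. Igfbp1 and the related gene Igfbpl1 were at 0 too. Mapk3, the broadly expressed kinase ERK1, and the keratin gene Krt18 were also listed at 0, so a 0 in this table need not mean that a transcript was missing.

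**Figure D1:**
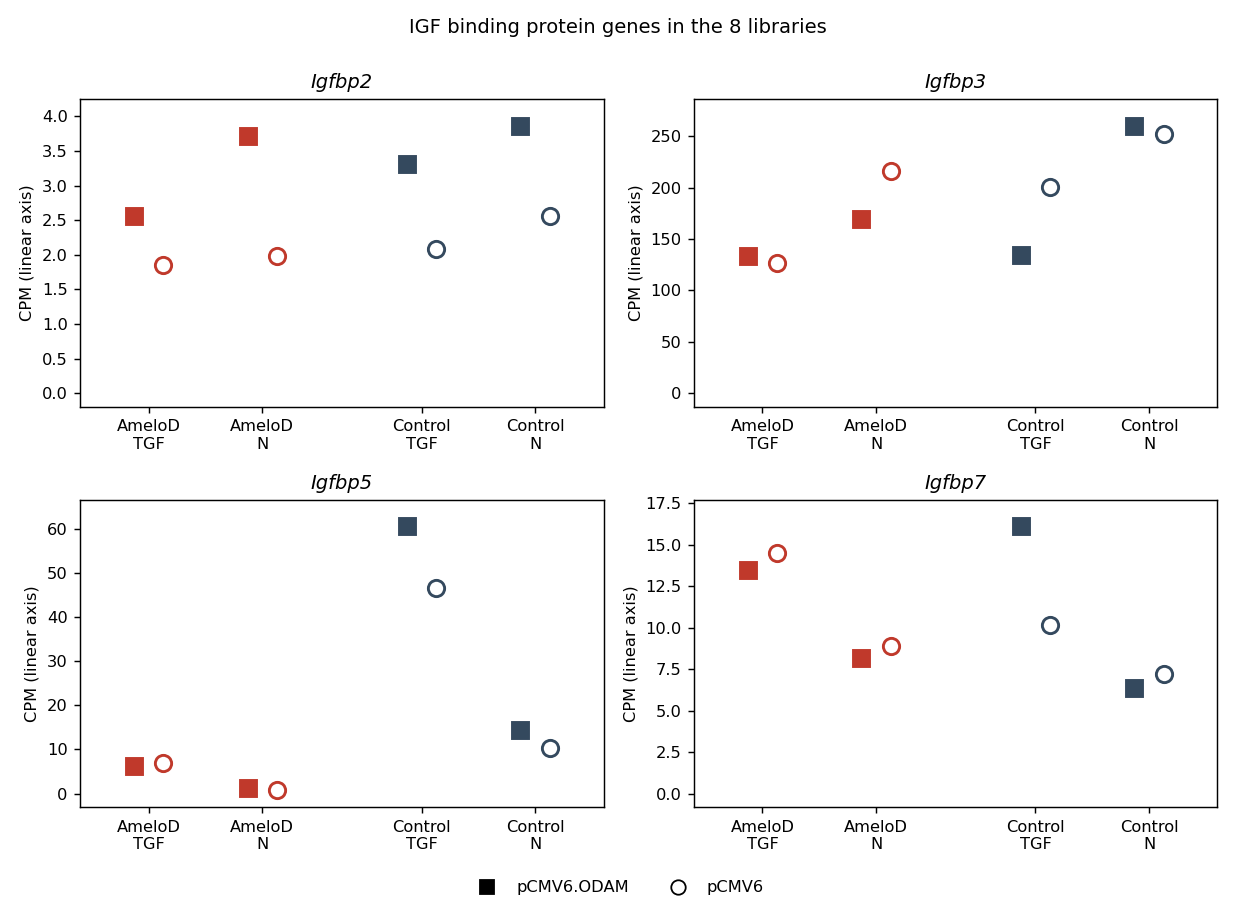
CPM (linear axis, starting just below 0) of the 4 measured members in each of the 8 libraries, grouped by genotype and TGF label; filled squares are pCMV6.ODAM and open circles pCMV6 libraries, and each point is 1 library. Igfbp5 ranges from 0.852 to 7.02 CPM in AmeloD and from 10.3 to 60.5 CPM in Control, whereas Igfbp3 stays between 127 and 260.0 CPM.

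Igfbp5 was the measured member with the widest spread in relative terms. In AmeloD it was at 6.15 CPM (pCMV6.ODAM TGF), 1.33 CPM (pCMV6.ODAM N), 7.02 CPM (pCMV6 TGF) and 0.852 CPM (pCMV6 N). In Control it was at 60.5 CPM (pCMV6.ODAM TGF), 14.4 CPM (pCMV6.ODAM N), 46.6 CPM (pCMV6 TGF) and 10.3 CPM (pCMV6 N). Every AmeloD library lay below every Control library, and within each genotype both TGF libraries lay above both N libraries. The 187 AmeloD and 2137 Control reads make the AmeloD values the less precise.

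Between genotypes Igfbp5 was at 3.84 ± 3.20 CPM in AmeloD and 33.0 ± 24.5 CPM in Control (SD, n = 4 each, the other factors included). The fitted difference was -2.75 ± 0.15 on the log2(CPM + 1) scale (SE; limma with Benjamini-Hochberg adjustment over all tested genes, adjusted p = 5.97e-13). This value was already known when the family was taken up. AmeloD to Control ratios of CPM were 0.102 with pCMV6.ODAM TGF, 0.0925 with pCMV6.ODAM N, 0.151 with pCMV6 TGF and 0.0830 with pCMV6 N. Their exact 95% counting intervals were 0.0803 to 0.127, 0.0538 to 0.150, 0.117 to 0.191 and 0.0373 to 0.161. In each of the 4 settings Igfbp5 was thus 6.64 to 12.1 times lower in AmeloD. In bulk RNA, fewer expressing cells and less RNA per cell cannot be told apart. Of 12 fibroblast and mesenchymal markers 6 were at 0 (Col1a2, Dcn, Lum, Pdgfrb, Thy1 and Postn), and their sum was at 17.9 to 27.9 CPM in AmeloD and 35.1 to 66.2 CPM in Control. The sum was carried by Col3a1, a fibrillar collagen gene, at 17.3 to 26.4 CPM in AmeloD and 33.2 to 63.0 CPM in Control. Vim, the only other tested marker of the list, overlapped at 0.445 to 1.14 CPM in AmeloD and 0.438 to 1.75 CPM in Control. The part of such cells in the Igfbp5 difference was not tested.

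Igfbp3 was at 134 CPM (pCMV6.ODAM TGF), 169 CPM (pCMV6.ODAM N), 127 CPM (pCMV6 TGF) and 216 CPM (pCMV6 N) in AmeloD. In Control it was at 134 CPM (pCMV6.ODAM TGF), 260.0 CPM (pCMV6.ODAM N), 201 CPM (pCMV6 TGF) and 252 CPM (pCMV6 N). The genotypes overlapped, as both Control TGF libraries lay within the AmeloD range. Igfbp3 averaged 161 ± 40.7 CPM in AmeloD and 212 ± 58.1 CPM in Control (SD, n = 4 each) and fell by 0.38 ± 0.10 on the log2(CPM + 1) scale (limma adjusted p = 0.0130). The AmeloD to Control ratio was 0.651 with pCMV6.ODAM N, 0.631 with pCMV6 TGF and 0.855 with pCMV6 N, but 0.999 (95% counting interval 0.937 to 1.06) with pCMV6.ODAM TGF. These ratios rest on 1371 to 4033 reads a library. The call ended when any of 4 of the 8 libraries was left out, AmeloD pCMV6.ODAM N, AmeloD pCMV6 TGF, Control pCMV6.ODAM N or Control pCMV6 TGF. It also ended in the TGF libraries alone, in the pCMV6.ODAM libraries alone, without the filter, without the variance trend and without the other factors, with adjusted p up to 0.290.

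Igfbp7 was at 13.5 CPM (pCMV6.ODAM TGF), 8.16 CPM (pCMV6.ODAM N), 14.5 CPM (pCMV6 TGF) and 8.89 CPM (pCMV6 N) in AmeloD. In Control it was at 16.1 CPM (pCMV6.ODAM TGF), 6.37 CPM (pCMV6.ODAM N), 10.2 CPM (pCMV6 TGF) and 7.198 CPM (pCMV6 N). AmeloD was the higher in 3 of the 4 matched pairs, and the fitted difference of 0.20 ± 0.15 did not pass the test (limma adjusted p = 0.425, 95% interval -0.11 to 0.52). Igfbp2 was at 1.85 to 3.71 CPM in AmeloD and 2.08 to 3.86 CPM in Control, with a difference of -0.17 ± 0.17 (limma adjusted p = 0.581, 95% interval -0.53 to 0.18). Its tail-to-tail neighbour Igfbp5 differed far more, so the pair did not share the size of the genotype difference. In all, 2 of the 4 tested members passed for genotype, both lower in AmeloD. Of all tested genes 13.8% passed, 9.07% higher and 4.75% lower in AmeloD. That split moves with the scaling: 65.6% of the calls were higher in AmeloD as deposited and 52.5% after TMM scaling.

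**Figure D2:**
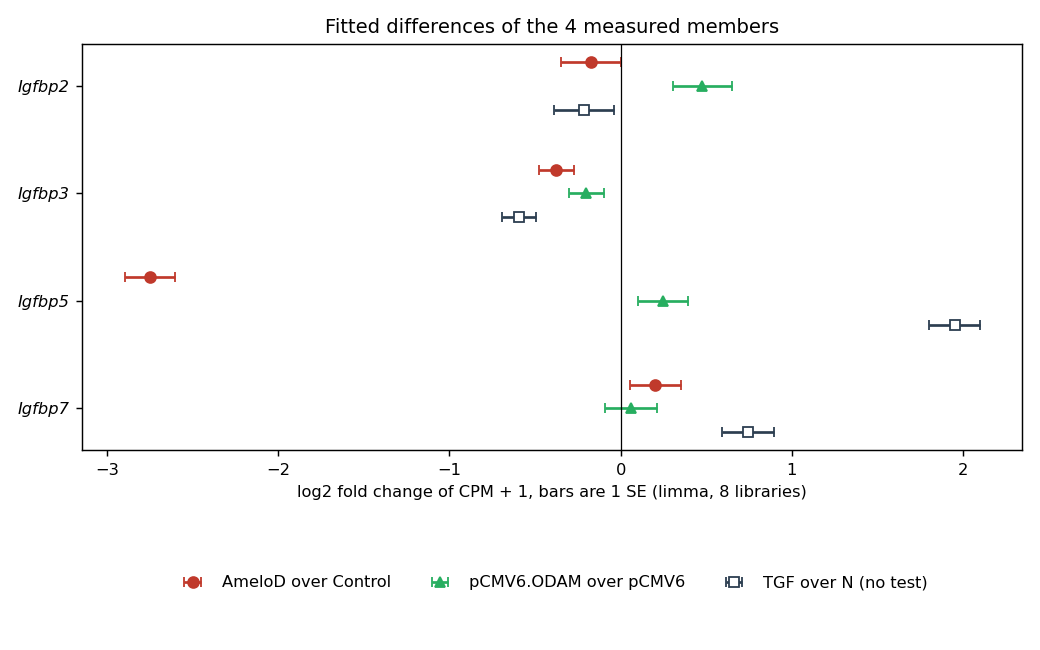
Fitted log2 fold changes of CPM + 1 with 1 SE for the 4 measured members, for AmeloD over Control, pCMV6.ODAM over pCMV6 and TGF over N (limma on all 8 libraries; open squares mark the contrast given without a test). Igfbp5 lies at -2.75 for genotype and 1.95 for TGF, and Igfbp3 below 0 for all 3 contrasts.

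Between TGF and N libraries the members went in different directions, the observation for which they were chosen. Igfbp5 was at 30.1 ± 27.7 CPM in TGF and 6.72 ± 6.72 CPM in N libraries (SD, n = 4 each), a difference of 1.95 ± 0.15 on the log2(CPM + 1) scale. Igfbp7 was at 13.6 ± 2.51 CPM in TGF and 7.65 ± 1.10 CPM in N libraries, a difference of 0.74 ± 0.15. Its 4 TGF libraries (10.2 to 16.1 CPM) all lay above its 4 N libraries (6.37 to 8.89 CPM). Igfbp3 was at 149 ± 34.8 CPM in TGF and 224 ± 41.5 CPM in N libraries, a difference of -0.59 ± 0.10. Its groups overlapped, because the Control pCMV6 TGF library (201 CPM) was above the AmeloD pCMV6.ODAM N library (169 CPM). Igfbp2 was at 2.45 ± 0.647 CPM in TGF and 3.03 ± 0.904 CPM in N libraries, a difference of -0.21 ± 0.17. On either side of the line between opposite directions, Igfbp7 and Igfbp2 are the members nearest to 0. Over all tested genes 1.81% passed for TGF, 1.53% higher and 0.277% lower (84.7% of the calls higher, 74.1% after TMM scaling), and nothing is read from this for members chosen on the same contrast. Summed fibroblast and mesenchymal markers were at 21.6 to 66.2 CPM in TGF and 17.9 to 39.5 CPM in N libraries, again carried by Col3a1 (19.8 to 63.0 CPM in TGF and 17.3 to 38.3 CPM in N libraries), and their part in these differences was not tested.

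Within single pairs of libraries matched by genotype and plasmid, the TGF to N ratio of Igfbp5 was 4.60 (AmeloD pCMV6.ODAM, 95% counting interval 2.74 to 8.14) and 8.25 (AmeloD pCMV6, 4.12 to 18.7). In Control it was 4.19 (pCMV6.ODAM, 3.61 to 4.89) and 4.54 (pCMV6, 3.84 to 5.41). The 4 intervals overlap, but those of AmeloD are wide, as Igfbp5 had only 9 and 18 reads in the AmeloD N libraries. The overlap therefore does not show that the ratios were alike. For Igfbp3 the ratio was 0.791 and 0.587 in AmeloD and 0.516 and 0.796 in Control (pCMV6.ODAM then pCMV6). The plasmid with the larger difference was pCMV6 in AmeloD and pCMV6.ODAM in Control. For Igfbp7 the ratio was 1.65 and 1.63 in AmeloD and 2.53 and 1.41 in Control, where the pCMV6.ODAM pair had the highest of the 4 ratios (95% counting interval 1.99 to 3.25). Igfbp2 ratios lay between 0.691 and 0.930, each with a counting interval that included 1. The intervals of these pairs cover counting error between single libraries only and are no test of the TGF label.

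**Figure D3:**
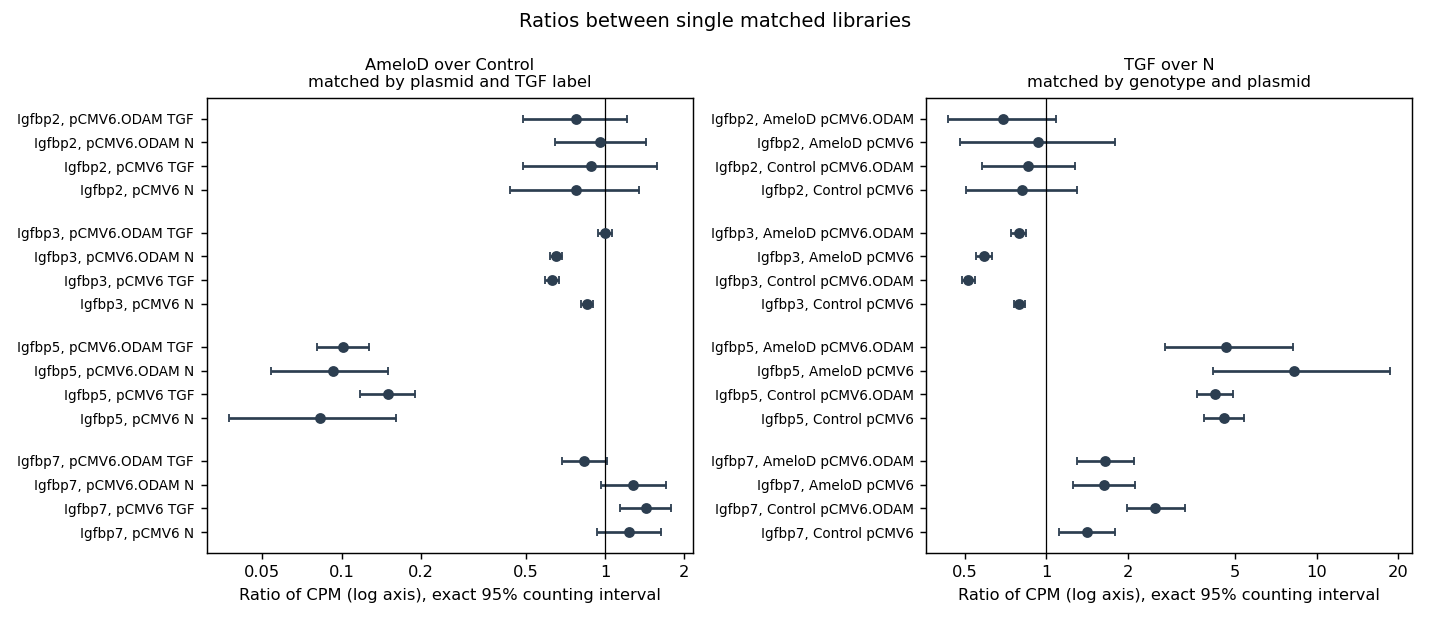
Ratios of CPM (log axis) between single libraries that differ in 1 factor, with exact 95% counting intervals: AmeloD over Control on the left and TGF over N on the right. Igfbp5 lies at 0.0830 to 0.151 on the left and at 4.19 to 8.25 on the right, and the 4 Igfbp3 ratios at 0.631 to 0.999 on the left and 0.516 to 0.796 on the right.

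Whether the TGF difference depended on genotype was tested with an interaction term, a contrast that did not enter the choice of members. No member passed. The genotype by TGF term was -0.17 ± 0.31 for Igfbp5 (limma adjusted p = 0.999, 95% interval -0.80 to 0.45), 0.09 ± 0.21 for Igfbp3 (-0.34 to 0.52), -0.18 ± 0.31 for Igfbp7 (-0.81 to 0.46) and -0.04 ± 0.37 for Igfbp2 (-0.79 to 0.70). These intervals are wide, so like responses in both genotypes are not shown. The sign for Igfbp5 depended on the scale: it was 0.26 with 0.25 CPM added in place of 1, 0.46 by edgeR and 0.46 by DESeq2 on the recovered reads, none of which passed. Over all 6849 genes 1 passed this test with limma (0.0146%), 282 had an unadjusted p under 0.05, and 0 passed with edgeR or DESeq2.

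The reads on the family changed in make-up with both factors. Igfbp5 took 3.93% of them in AmeloD pCMV6.ODAM TGF (95% exact interval 3.15% to 4.85%), 0.731% in AmeloD pCMV6.ODAM N (0.434% to 1.15%), 4.68% in AmeloD pCMV6 TGF (3.70% to 5.82%) and 0.374% in AmeloD pCMV6 N (0.171% to 0.709%). In Control it took 28.3% with pCMV6.ODAM TGF (26.7% to 29.8%), 5.07% with pCMV6.ODAM N (4.42% to 5.77%), 18.0% with pCMV6 TGF (16.9% to 19.1%) and 3.77% with pCMV6 N (3.22% to 4.38%). Igfbp3 held the most family reads in every library, 84.4% to 94.8% in AmeloD and 62.7% to 92.6% in Control. The summed level of the family was 150.04 to 227 CPM in AmeloD and 214 to 285 CPM in Control. Shares are of reads at 3′ ends, not of molecules of protein or of transcripts of equal capture, so they are compared between libraries and not between genes.

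**Figure D4:**
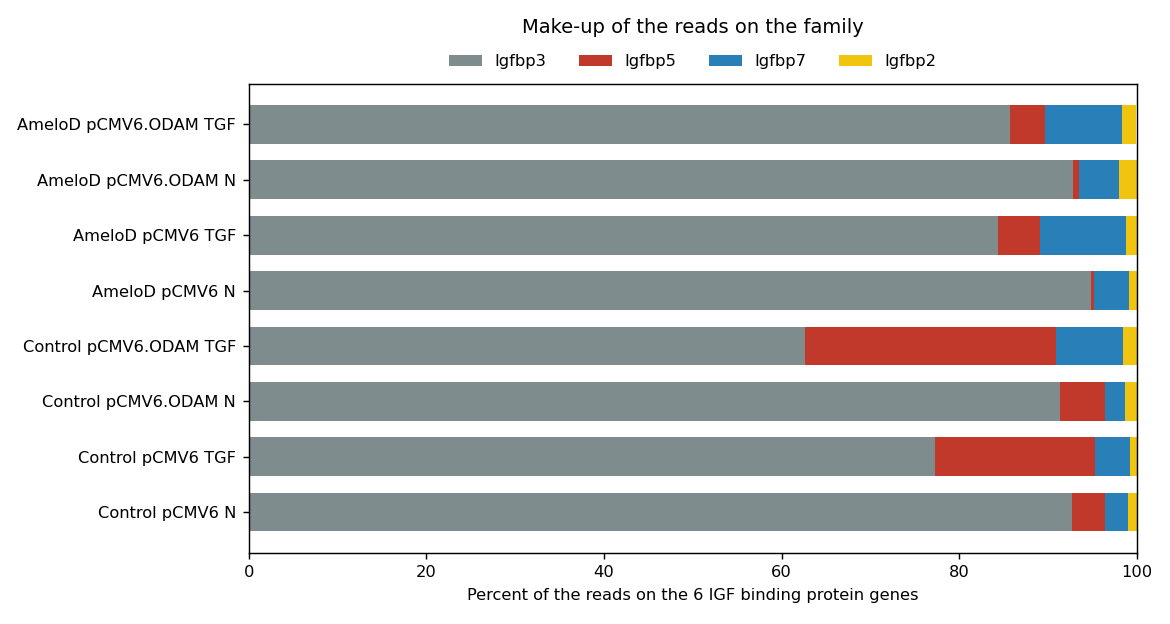
Percent of the reads on the family that fell on each measured member, 1 bar per library from 0 to 100 (Igfbp4 had 0 reads and Igfbp6 had 1, too few to see). Igfbp5 takes 28.3% and 18.0% in the Control TGF libraries and 5.07% or less in the other 6.

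The plasmid label moved no member past the test. Igfbp2 came nearest, at 2.56, 3.71, 3.31 and 3.86 CPM in the pCMV6.ODAM libraries (AmeloD TGF, AmeloD N, Control TGF, Control N) against 1.85, 1.99, 2.08 and 2.57 CPM in the matched pCMV6 libraries. It was higher with pCMV6.ODAM in 4 of 4 pairs, by 0.48 ± 0.17, and the groups overlapped only at 2.56 and 2.57 CPM. The limma adjusted p was 0.710, on 193 reads with pCMV6.ODAM and 119 with pCMV6, with a 95% interval of 0.12 to 0.83 before any adjustment. Igfbp5 had a plasmid difference of 0.25 ± 0.15 (limma adjusted p = 0.786), Igfbp3 of -0.20 ± 0.10 (limma adjusted p = 0.739) and Igfbp7 of 0.06 ± 0.15 (limma adjusted p = 0.981). Over all tested genes 0 passed with limma or edgeR (0%) and 1 with DESeq2, and 454 had an unadjusted p under 0.05. No member passed for the genotype by plasmid term, which lay between -0.34 and 0.13. The plasmid by TGF term was -0.29 ± 0.28 for Igfbp5, 0.39 ± 0.28 for Igfbp7, -0.10 ± 0.20 for Igfbp3 and -0.15 ± 0.35 for Igfbp2, none past the test. For that term the median of all genes was 0.16 as deposited and 0.00 after TMM scaling, so these values shift by about that much with the scaling. For both of these terms 0 genes passed with limma, edgeR or DESeq2, with 308 and 504 genes at an unadjusted p under 0.05 by limma.

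On the ligand and receptor side most of the listed partners of the family had few or no reads. Igf1, Igf2, Ins1 and Ins2, the ligand genes, were listed at 0 reads in the 8 libraries, as was the orphan receptor gene Insrr. Mapk3 and Krt18 were listed at 0 too, so these zeros need not mean that the transcripts were missing. Of 8 genes listed, the signalling receptor gene Igf1r and the clearance receptor gene Igf2r were tested, and neither passed for genotype, TGF or plasmid (medians 0.08, 0.07 and -0.07). Igf1r was at 1.90 ± 0.415 CPM in AmeloD and 1.42 ± 0.317 CPM in Control (0.26 ± 0.18, limma adjusted p = 0.407). Between plasmids Igf1r differed by -0.20 ± 0.18 (limma adjusted p = 0.886). Igf2r was at 6.56 ± 1.31 CPM in TGF and 6.04 ± 0.697 CPM in N libraries (limma adjusted p = 0.905). Insr had 11 reads in all.

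Of 14 other listed genes whose products carry an IGFBP-type N-terminal domain 4 were tested, of which 2 rose with AmeloD, 0 fell and 2 did not pass (median 0.32, against 0.05 over all genes). Counts of these lists are to be read against the shares of all tested genes, 9.07% higher and 4.75% lower for genotype, and 1.53% higher and 0.277% lower for TGF. Ccn2, a matricellular protein induced by TGF-beta, was at 24.0 ± 21.5 CPM in AmeloD and 7.44 ± 7.08 CPM in Control (1.54 ± 0.15, limma adjusted p = 5.19e-08), a call that ended when the other factors were left out of the model. It was at 27.7 ± 17.4 CPM in TGF and 3.71 ± 3.01 CPM in N libraries (2.62 ± 0.15, limma adjusted p = 1.96e-11). Ccn2 was thus higher with TGF, as Igfbp5 was, and higher in AmeloD, where Igfbp5 was lower. Htra1, a secreted serine protease that cleaves IGF binding proteins, was at 85.7 ± 12.9 CPM in AmeloD and 55.9 ± 9.34 CPM in Control, and rose by 0.61 ± 0.10 (limma adjusted p = 0.000178; 0.0538 in the pCMV6.ODAM libraries alone). For TGF 1 of the 4 rose and 0 fell (median 0.15, against 0.04 over all genes).

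Among 23 listed IGFBP proteases and their inhibitors 7 were tested, with medians of 0.18 for genotype and 0.21 for TGF. The protease gene Htra1, which rose with AmeloD, was counted with the N-terminal domain genes and not in this list. One rose with AmeloD and 0 fell: Timp2, an inhibitor of metalloproteinases, was at 20.3 ± 1.69 CPM in AmeloD and 8.45 ± 2.62 CPM in Control (1.21 ± 0.15, limma adjusted p = 2.12e-06). With TGF 1 rose and 0 fell, the procollagen protease gene Bmp1, at 2.93 ± 0.820 CPM in TGF and 1.27 ± 0.601 CPM in N libraries (0.80 ± 0.20, limma adjusted p = 0.0370). The Bmp1 call ended under 17 of 22 alternatives, among them edgeR, DESeq2 and TMM scaling. The IGFBP protease gene Pappa had 7 reads in all, its relative Pappa2 had 0, and its inhibitors Stc1 and Stc2 had 2 and 0.

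Of 15 listed partners at the cell surface, in the matrix or inside the cell 8 were tested, with medians of 0.23 for genotype and 0.23 for TGF. With AmeloD 1 rose, the surface proteoglycan gene Gpc3 (8.24 ± 1.12 CPM in AmeloD and 4.67 ± 1.32 CPM in Control, 0.73 ± 0.17, limma adjusted p = 0.00323), and 1 fell, the fibronectin gene Fn1 (32.8 ± 18.8 CPM in AmeloD and 45.8 ± 15.7 CPM in Control, -0.59 ± 0.14, limma adjusted p = 0.00392). The Gpc3 call ended in the TGF libraries alone and in the pCMV6.ODAM libraries alone, and that of Fn1 in the TGF libraries alone, the pCMV6 libraries alone, without the variance trend and without the other factors. With TGF 3 rose and 0 fell. Fn1 was at 53.5 ± 9.48 CPM in TGF and 25.2 ± 9.44 CPM in N libraries (1.12 ± 0.14, limma adjusted p = 9.41e-06; 0.0954 without the other factors). Fhl2, a LIM-domain cofactor known to bind IGFBP-5, was at 9.70 ± 2.23 CPM in TGF and 5.04 ± 0.643 CPM in N libraries (0.81 ± 0.16, limma adjusted p = 0.00492). The Fhl2 call ended under 4 of 23 alternatives, in the Control, AmeloD or pCMV6 libraries alone and without the other factors, with adjusted p of 0.107 to 0.369. Itgb1, the beta subunit of many matrix receptors, was at 171 ± 6.72 CPM in TGF and 130.03 ± 21.3 CPM in N libraries (0.41 ± 0.10, limma adjusted p = 0.0209), a call that ended under 18 of 23 alternatives, edgeR, DESeq2 and every other scaling included.

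**Figure D5:**
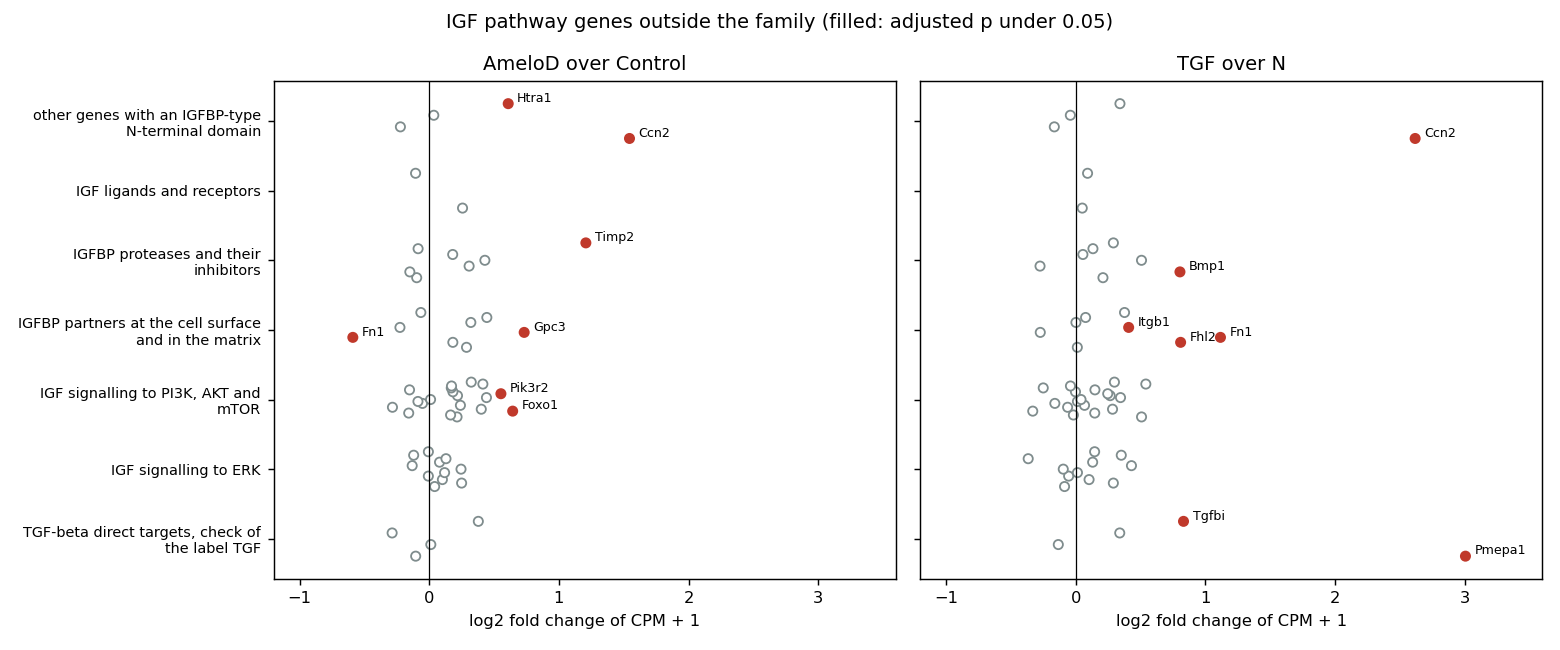
log2 fold change of CPM + 1 for tested genes of 7 IGF pathway and check lists, AmeloD over Control on the left and TGF over N on the right; filled points passed the test at an adjusted p under 0.05 and are named. Ccn2 lies at 1.54 and 2.62, while no gene of the ligand and receptor list or of the ERK list is filled.

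Downstream of the receptor, 3 of 20 tested genes of the PI3K, AKT and mTOR list rose with AmeloD, 0 fell and 17 did not pass (median 0.20, against 0.05 over all genes). With 9.07% of all tested genes higher in AmeloD, so small a count is no result about the list. Among them were Foxo1, a transcription factor restrained by AKT (1.93 ± 0.918 CPM in AmeloD and 0.848 ± 0.480 CPM in Control, limma adjusted p = 0.0216) and Pik3r2, a regulatory PI3K subunit gene (1.82 ± 0.353 CPM in AmeloD and 0.925 ± 0.224 CPM in Control, limma adjusted p = 0.0383). Both were low, and the call ended under 10 of 22 alternatives for Foxo1 and under 17 of 22 for Pik3r2. The run without the filter was among these for both genes. Both reached 1 CPM in every AmeloD library but stayed below it in most Control libraries. They thus entered the tests through the group where they were high. Their p-values are therefore no independent evidence of a genotype difference, and the count of 3 and the median include these genes. No gene of the list passed for TGF, where Rptor came nearest (limma adjusted p = 0.159), or for plasmid, where Foxo1 did (limma adjusted p = 0.677). Of 11 tested genes of the ERK list 0 passed for genotype, TGF or plasmid (medians 0.08, 0.10 and 0.01). The nearest were Grb2 for genotype and for plasmid (limma adjusted p = 0.370 and 0.830) and Nras for TGF (limma adjusted p = 0.323). In the pCMV6 libraries alone Grb2 passed for genotype (0.55, limma adjusted p = 0.0307).

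Known direct targets of TGF-beta were read as a check of the label TGF. Of 9 listed 4 were tested, and 2 of these rose with TGF and 0 fell (median 0.59). Pmepa1, a feedback inhibitor, was at 7.81 ± 1.65 CPM in TGF and 0.0837 ± 0.0619 CPM in N libraries (3.01 ± 0.19, limma adjusted p = 6.30e-11). It reached 1 CPM only in the TGF libraries, so it entered the tests through the group where it was high. Its p is therefore no independent check of the label, and the count of 2 and the median include this gene. Tgfbi, a matrix protein gene, was at 4.75 ± 1.70 CPM in TGF and 2.18 ± 0.710 CPM in N libraries (0.83 ± 0.21, limma adjusted p = 0.0331), a call that ended under 11 of 22 alternatives. None of the 4 passed for genotype, where Tgfbi was nearest (0.38 ± 0.21, limma adjusted p = 0.2502), nor for plasmid, where Smurf1 was (limma adjusted p = 0.880). Without the Control pCMV6.ODAM TGF library Tgfbi passed for genotype (0.64, limma adjusted p = 0.0364).

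The genes whose pattern was most like that of Igfbp5 were sought among 2521 tested genes with a symbol and a mean of at least 5 CPM, by Pearson's r of log2(CPM + 1) over the 8 libraries. They were Set (r = 0.981), a histone chaperone gene, Lgals1 (r = 0.980), encoding galectin-1, Gng13 (r = 0.971), a G protein gamma subunit gene, the AP-1 gene Jun (r = 0.971) and Cfdp1 (r = 0.953). Their differences were smaller than that of Igfbp5. Lgals1 was at 172, 105, 213 and 102 CPM in AmeloD and 369, 230, 393 and 247 CPM in Control (each as pCMV6.ODAM TGF, pCMV6.ODAM N, pCMV6 TGF, pCMV6 N). Its fitted differences were -1.09 ± 0.09 for genotype and 0.78 ± 0.09 for TGF, against -2.75 and 1.95 for Igfbp5. Gng13 ranged from 1.61 to 3.70 CPM in AmeloD and from 6.45 to 14.6 CPM in Control.

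For Igfbp3 the most alike were Trim28 (r = 0.925), a transcriptional corepressor gene, Csta (r = 0.908), encoding the epithelial protease inhibitor cystatin A, Col17a1 (r = 0.885), a hemidesmosomal collagen gene of basal epithelial cells, LOC108348980 (r = 0.846) and Fam136a (r = 0.837). Col17a1 was at 13.5, 16.9, 13.9 and 19.5 CPM in AmeloD and 18.3, 23.0, 19.2 and 27.2 CPM in Control, in the same order of libraries. These r values are descriptions over 8 libraries that share the same 3 factors and differ in depth, and no p is attached to them.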

How the data were processed

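Libraries were made from total RNA with a 3′-end kit and sequenced as paired ends, and reads were trimmed, mapped with STAR to mRatBN7.2 and counted per gene with featureCounts, per the labels' protocols (STAR 2.7.10a and featureCounts 2.0.1, per the submitters' processing notes). The sources used here do not state the strand setting or any use of molecular identifiers. The authors deposited 1 table of CPM per gene and library. Dividing each value by the library's smallest step gave whole reads for 100% of values (within 0.01), and from these the library totals. Reads may be copies of 1 molecule, so intervals cover counting error only.

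Genes were tested on log2(CPM + 1) with limma 3.58.1 (R 4.3.3), using the eBayes trend and additive terms for genotype, plasmid and TGF label (4 residual degrees of freedom, 3 with an interaction). The eBayes step pools the spread over genes, so SEs and p-values rest on more than a gene's own residual degrees of freedom. Tests were two-sided. A gene needed 1 CPM in 4 libraries to enter, which 6849 did, and their p-values were adjusted together (Benjamini-Hochberg) and read at 0.05. The limma step was also run on simulated counts, with genes drawn independently, the same dispersion for every gene and no effect of the other factors. That setting is simpler than these libraries, so the run does not show how the step performs on them. Alternatives were other scalings (TMM, equal table totals, equal medians), pseudocounts, filters, no trend, edgeR 4.0.16 and DESeq2 1.42.0 on the recovered reads, subsets of libraries and models without the other factors. Counting intervals are exact (Clopper-Pearson, 95%). Of 173 symbols in 7 pathway or check lists and 6 marker lists, 169 had a row, found for 1 through an older name. Up to 4 passing genes per list and comparison were named, or the nearest one, beside the members and the 5 genes most like Igfbp5 and Igfbp3. One result for a gene of these lists is not reported here, and that gene is not drawn. Members, lists and tests were chosen with earlier results of these data known.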

Additional observations from a re-analysis of the deposited data

How the results depend on the processing

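The number of genes past the test was 946 for genotype, 606 with a filter of 5 CPM, 386 in the pCMV6.ODAM libraries alone, 437 in the TGF libraries alone and 642 to 924 without 1 library. For TGF it was 124, with 67 without a filter, 62 without the trend, 54 in Control alone, 11 in AmeloD alone, 82 in pCMV6.ODAM alone, 17 without the other factors and 71 to 104 without 1 library, with 71 without AmeloD pCMV6.ODAM N and 76 without Control pCMV6.ODAM N. For plasmid it was 0, with 1 by DESeq2, 3 in Control alone, 4 in the N and 22 in the TGF libraries alone and 0 to 2 without 1 library. For genotype by TGF it was 1, with 0 at a pseudocount of 0.25, without a filter, without the trend, by edgeR and by DESeq2, and 0 to 7 without 1 library (7 without AmeloD pCMV6 TGF, 6 without AmeloD pCMV6 N). For genotype by plasmid and plasmid by TGF it was 0, and 0 to 2 and 0 to 3 without 1 library. The share of genotype calls that were higher in AmeloD was 65.6%, against 52.5% with TMM, 49% with equal medians, 53.6% with edgeR and 53.3% with DESeq2; of TGF calls 84.7% were higher, against 74.1%, 74.8%, 75.2% and 70.6% (69.7% with equal table totals).

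The number of members past the genotype test was 2, and 1 without a filter, without the trend, in the pCMV6.ODAM or TGF libraries alone, without the other factors, and 1 to 2 without 1 library; Igfbp5 kept its call in all 23 alternatives (-3.24 to -2.05) and Igfbp3 its direction (-0.48 to -0.29). As descriptions, the TGF differences kept their signs in every alternative run, at 1.44 to 2.24 for Igfbp5, -0.68 to -0.49 for Igfbp3, 0.55 to 0.94 for Igfbp7 and -0.37 to -0.12 for Igfbp2. Of the values that did not pass, some changed sign. The genotype by TGF term of Igfbp5 was 0.26 at a pseudocount of 0.25, 0.46 by edgeR and 0.46 by DESeq2, and the added CPM weighs most on its low AmeloD values. Plasmid differences were -0.11 in AmeloD and -0.13 in the N libraries for Igfbp7, -0.014 in the TGF libraries for Bmp1, -0.062 in AmeloD for Grb2, and -0.066 in AmeloD and -0.070 in the N libraries for Smurf1. The genotype difference of Grb2 was -0.053 with pCMV6.ODAM and -0.11 in the N libraries but 0.55 and past the test with pCMV6, and the TGF difference of Igf2r was -0.17 with pCMV6; the cause was not tested. Without 1 library, ranges across 0 were -0.10 to 0.14 (plasmid, Igfbp7), -0.028 to 0.37 (plasmid, Smurf1), -0.028 to 0.22 (TGF, Igf2r), -0.16 to 0.074, -0.16 to 0.34, -0.45 to 0.10 and -0.55 to 0.19 (genotype by TGF, Igfbp2, Igfbp3, Igfbp5 and Igfbp7), -0.10 to 0.15 and -0.10 to 0.37 (genotype by plasmid, Igfbp2 and Igfbp3) and -0.35 to 0.15 (plasmid by TGF, Igfbp3). Interactions within a subset of libraries could not be fitted, as no residual degrees of freedom remain. Depth limits Igfbp2 and the AmeloD values of Igfbp5, and the zeros of Igfbp4 set no bound on its expression, since Mapk3 and Krt18 were listed at 0 too.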
